A study of Mus musculus with 12 samples.

Results

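The genes described here are 10 genes of antigen presentation by the major histocompatibility complex (MHC): H2-Aa, H2-Ab1, H2-Eb1, H2-DMa, H2-DMb1, Cd74 and Ciita of the class II pathway, and B2m, Tap1 and Tapbp of the class I pathway. They were chosen by name, and each was read from the probe set that the platform annotation assigns to that gene alone, taking the one with the highest mean where there were several. This gave 9 of the 10 genes, and all 9 passed the filter on dim signals that left 17749 of 22180 genes. The only probe set for Cd74, the class II invariant chain, is also assigned to a microRNA gene, so no value is given for Cd74.

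The values come from 12 one-colour arrays, 3 in each of 4 groups, of a myeloid leukemia that the fusion gene MLL-AF9 causes in mice of strain C57BL/6J. Donor marrow progenitors carrying the oncogene were either AMPKfl/fl (WT, floxed alleles of the energy-sensing kinase AMPK) or AMPKΔ/Δ (knockout, KO), and in both genotypes 50000 of them were injected into recipients irradiated with 10 Gy. At leukemia onset 5000 marrow cells were sorted as whole leukemia (all GFP+ cells) or as L-GMP, the GFP+, lin-, c-kit+, CD16/32+, CD34+ fraction that the design text equates with leukemia-initiating cells. The 4 groups are thus WT whole leukemia, KO whole leukemia, WT L-GMP and KO L-GMP, all amplified with NuGEN whole-transcript kits. The labels give neither the Cre driver nor any other treatment, and whether replicates came from separate animals is not stated, so p-values measure only the spread among these arrays, which may be technical.

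Class II molecules show peptides from the endocytic route to CD4 T cells. Each is a heterodimer of an alpha and a beta chain, the invariant chain Cd74 guards its groove, and the H2-DM heterodimer exchanges the invariant chain remnant for peptide. Class II genes are switched on by the transactivator Ciita in dendritic cells, B cells and macrophages, and by interferon gamma in other cells, including part of myeloid leukemias. Class I molecules are on nearly all cells and show peptides that the proteasome makes and Tap1 with Tap2 carries into the endoplasmic reticulum, where Tapbp (tapasin) helps to load them onto a heavy chain paired with B2m.

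The promoters of these genes are shown because class II genes, with the class I light chain, are known for a shared promoter module of X and Y boxes on which Ciita acts, and class I genes for an interferon-stimulated element. The sequences are RefSeq's, build GRCm38.p6, the 250 bases before the annotated start, and capitals mark motif matches. H2-Aa lies on the minus strand at chr17:34287824-34288073, H2-Eb1 on the plus strand at chr17:34305617-34305866, H2-DMb1 on the plus strand at chr17:34152941-34153190, and B2m on the plus strand at chr2:122147437-122147686.
H2-Aa: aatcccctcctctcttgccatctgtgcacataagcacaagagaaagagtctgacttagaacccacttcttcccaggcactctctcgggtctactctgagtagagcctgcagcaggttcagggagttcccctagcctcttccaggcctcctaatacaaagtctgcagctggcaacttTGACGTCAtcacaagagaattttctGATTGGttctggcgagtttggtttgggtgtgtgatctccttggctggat
H2-Eb1: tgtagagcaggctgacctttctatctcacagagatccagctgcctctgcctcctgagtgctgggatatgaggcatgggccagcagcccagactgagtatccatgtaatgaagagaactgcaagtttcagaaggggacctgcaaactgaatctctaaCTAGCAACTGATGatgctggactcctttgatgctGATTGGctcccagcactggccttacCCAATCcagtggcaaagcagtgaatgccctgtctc
H2-DMb1: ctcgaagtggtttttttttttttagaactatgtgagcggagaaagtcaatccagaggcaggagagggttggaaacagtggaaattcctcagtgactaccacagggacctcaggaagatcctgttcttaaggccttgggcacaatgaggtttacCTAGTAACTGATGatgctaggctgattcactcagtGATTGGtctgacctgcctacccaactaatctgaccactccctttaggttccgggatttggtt
B2m: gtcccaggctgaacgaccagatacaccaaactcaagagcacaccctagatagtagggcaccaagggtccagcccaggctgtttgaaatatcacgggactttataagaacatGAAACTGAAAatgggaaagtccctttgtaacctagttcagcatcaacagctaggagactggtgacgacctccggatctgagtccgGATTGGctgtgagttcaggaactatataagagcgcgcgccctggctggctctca

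The motifs were searched on both strands, and their letters were chosen after these sequences had been seen. The X box was searched as CTAG, any base, AAC, and TG after a gap as long as in the matches, and it was found as CTAGCAACTGATG in H2-Eb1, at -94 to -82 from the start, and as CTAGTAACTGATG in H2-DMb1, at -97 to -85. This pattern occurs in 0.189% of 32851 mouse promoters of this length. H2-Aa and B2m held no match to it, but a pattern taken from its own matches can miss an X box with other letters. The Y box letters GATTGG, an inverted CCAAT box, stood at -60 to -55 in H2-Eb1, at -62 to -57 in H2-DMb1, at -49 to -44 in H2-Aa and at -54 to -49 in B2m. On the minus strand H2-Eb1 held a further Y box, at -35 to -30. The share of all promoters with a Y box is 14.6%. H2-Aa also held the cyclic AMP response element TGACGTCA at -74 to -67, which 1.55% of promoters hold. B2m held an interferon-stimulated element at -139 to -130, searched as a repeat of GAAA after the gap seen in the match GAAACTGAAA, which 2.98% of promoters hold. Of the promoters not printed, that of Tapbp held 0 of these motifs, Tap1 held only a Y box at -222 to -217, and of the H2-DMa starts one held 0 and the other only a Y box at -199 to -194. H2-Ab1 and Ciita have no entry in the promoter table. The promoter of Cd74, for which no value is given, was left out. These matches are descriptions of the letters and were not tested as binding sites.

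Unless called linear, all values below are log2 of the deposited intensity, and levels of different probe sets are not set against each other. The lowest linear values of H2-Aa (34.0), H2-Eb1 (41.9), Ciita (42.9) and H2-DMb1 (43.0) lay near the array medians of 36.9 to 39.3. Small differences between low values of these genes are thus differences between dim signals. In the label check Prkaa1, the gene of the AMPK alpha1 catalytic subunit, lay at 6.83 to 7.45 in the 6 KO arrays and at 7.72 to 8.69 in the 6 WT arrays. Prkaa2, the gene of the other catalytic subunit, lay at 4.66 to 5.05 in all 12 arrays, close to the dim limit of 4.72, and did not separate the genotypes that way, being higher in the KO than in the WT whole leukemia arrays by 0.10 (SE 0.09). Cd34, a marker of the L-GMP gate, lay at 9.45 to 10.05 in the L-GMP arrays and at 5.54 to 9.38 in the whole leukemia arrays. Of the other gate genes Kit differed between L-GMP and whole leukemia by 0.56 (SE 0.47) in WT and 1.14 (SE 0.47) in KO, Fcgr3 by -0.32 (SE 0.17) and 0.08 (SE 0.17), and Fcgr2b by -0.05 (SE 0.29) and 0.46 (SE 0.29). KO whole leukemia array 2 stood apart from the other 11 on the first principal component, at 67.4 against -24.2 to 18.5. Its mean over 6 erythroid genes was 9.415, against 5.077 to 6.091 in the other 11 arrays, and its mean over 12 neutrophil genes was 11.497, the highest of the 12.

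Across the 5 comparisons 0 of the 9 measured genes were called by limma at an adjusted p under 0.05. The share of all 17749 genes called was 0.00563% for KO against WT in L-GMP and 0% for KO against WT in whole leukemia, for L-GMP against whole leukemia in WT, for the same comparison in KO, and for the genotype-by-population interaction. At an unadjusted p under 0.05 only H2-DMa passed, in L-GMP against whole leukemia in KO, where 7.39% of all genes passed. The numbers of the 9 genes passing in the other 4 comparisons were 0, against 4.13% of all genes for KO against WT in L-GMP, 5.97% in whole leukemia, 2.5% for L-GMP against whole leukemia in WT and 2.06% for the interaction. With 3 arrays against 3 an exact permutation test of a single gene cannot give a p below 0.1, so the fit across all genes was used.

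H2-Aa, the alpha chain of the I-A class II molecule, had the widest spread of the 9 genes. It measured 5.784, 7.415 and 5.371 in WT whole leukemia arrays 1, 2 and 3, and 5.781, 7.833 and 5.485 in the KO whole leukemia arrays. The L-GMP arrays gave 5.402, 5.706 and 5.289 in WT and 5.092, 5.590 and 5.089 in KO. Array 2 of each whole leukemia group thus stood well above every other array, and the remaining 10 arrays lay within the range 5.089 to 5.784. The group means were 6.19 ± 1.08 in WT whole leukemia, 6.37 ± 1.28 in KO whole leukemia, 5.47 ± 0.22 in WT L-GMP and 5.26 ± 0.29 in KO L-GMP (SD, n = 3 each).

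L-GMP minus whole leukemia for H2-Aa was -0.72 (SE 0.62, 95% interval -2.10 to 0.65, limma adjusted p = 1.00) in WT. In KO it was -1.11 (SE 0.62, 95% interval -2.48 to 0.26, limma adjusted p = 0.699), and the arrays of the groups compared overlapped in both genotypes. Without array 2 of the whole leukemia group the difference was -0.11 in WT and -0.38 in KO. When arrays of the same number were set against each other, H2-Aa was lower in L-GMP in 6 of 6 pairs, by -0.382, -1.709 and -0.083 in WT and by -0.689, -2.244 and -0.396 in KO, which also held for 2.96% of all genes. In KO the deviations of same-numbered arrays from their group means correlated at 0.13, 0.09 and 0.43. No label pairs the arrays. KO number 3 lay within the 0.3 to 0.62 of the WT pairs, while KO numbers 1 and 2 share only a number. H2-Aa was the only one of the 9 genes lower in all 6 pairs. KO minus WT in whole leukemia was 0.18 (SE 0.62), and its sign depended on 1 array, with -0.56 without KO array 2 and 0.79 without WT array 2.

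**Figure D1:**
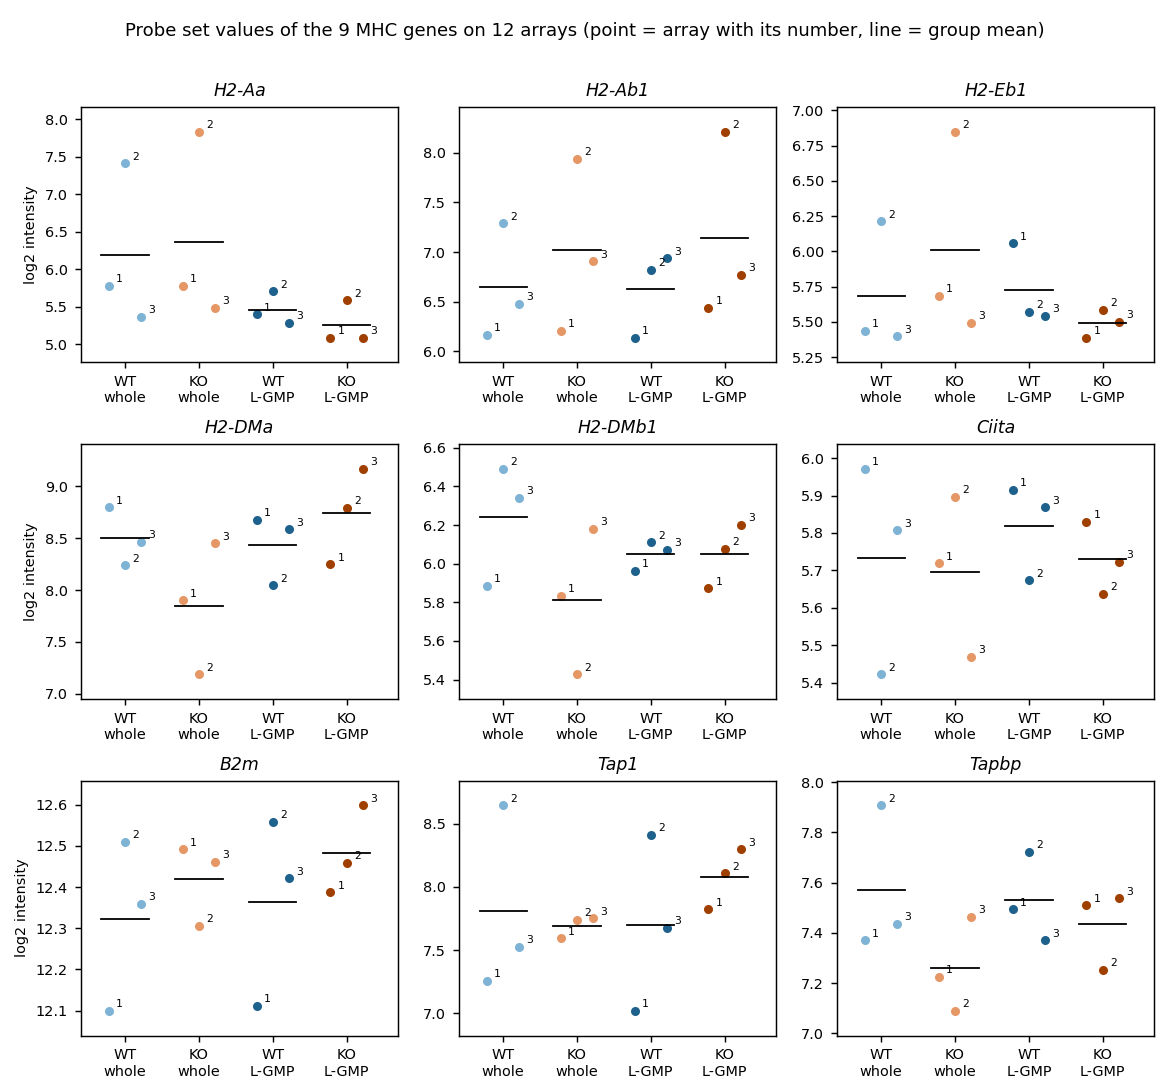
Log2 intensity of each of the 9 measured genes (vertical axis, own scale per panel) in the 3 arrays of each of the 4 groups (horizontal axis); points are arrays labelled by number and lines are group means, whose SD for H2-Aa is given in the text. For H2-Aa, array 2 of both whole leukemia groups, at 7.415 and 7.833, stood above the other 10 arrays.

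H2-Ab1, the beta chain that pairs with H2-Aa, measured 6.166, 7.290 and 6.476 in WT whole leukemia and 6.205, 7.943 and 6.907 in KO whole leukemia. In L-GMP it measured 6.135, 6.822 and 6.937 in WT and 6.438, 8.211 and 6.770 in KO. The highest arrays were number 2 of KO L-GMP and number 2 of KO whole leukemia, so a high H2-Ab1 value in KO was not limited to whole leukemia, unlike that of H2-Aa. KO minus WT was 0.51 (SE 0.53, 95% interval -0.68 to 1.69) in L-GMP and 0.37 (SE 0.53, 95% interval -0.81 to 1.56) in whole leukemia. Without array 2 of the KO group these were -0.03 and -0.09.

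H2-Eb1, the beta chain of the I-E molecule, measured 5.439, 6.213 and 5.398 in WT whole leukemia and 5.686, 6.847 and 5.492 in KO whole leukemia. The L-GMP values were 6.059, 5.574 and 5.543 in WT and 5.388, 5.587 and 5.499 in KO. Array 2 was again the highest of both whole leukemia groups, while in WT L-GMP array 1 was the highest. L-GMP minus whole leukemia was -0.52 (SE 0.34, 95% interval -1.26 to 0.23) in KO and 0.04 (SE 0.34) in WT. The KO value was -0.10 without KO whole leukemia array 2.

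All 3 class II chains were therefore highest in array 2 of both whole leukemia groups, a pattern that 10.3% of all genes shared. They were also highest of their group in KO L-GMP array 2, at 5.590, 8.211 and 5.587. Markers of cells that normally carry class II were read in the same arrays. Over 8 B cell genes the mean was 5.39 to 5.56 in WT whole leukemia, 5.385 to 5.74 in KO whole leukemia, 5.33 to 5.54 in WT L-GMP and 5.36 to 5.48 in KO L-GMP. KO whole leukemia array 2 was the highest of its group for 7 of the 8, against 34.1% of all genes, and Cd79a, part of the B cell receptor and named after its values were seen, measured 6.264 there and 4.856 to 5.588 elsewhere. Its partner Cd79b, likewise named after its values were seen, did not stand out there, at 7.101 against 6.805 to 8.405 elsewhere. WT whole leukemia array 2 had the lowest B cell mean of its group, 5.392. Over 12 dendritic cell genes the mean was 6.03 to 6.19 in WT whole leukemia, 5.595 to 5.94 in KO whole leukemia, 5.78 to 6.12 in WT L-GMP and 5.80 to 5.91 in KO L-GMP. The classical dendritic cell genes Zbtb46 (4.888 to 5.165) and Xcr1 (4.886 to 5.413) lay close to the dim limit of 4.72 in all 12 arrays, below the list means, so other genes of the list were brighter. For KO minus WT in whole leukemia the 12 genes differed by -2.256 to 0.294. KO whole leukemia array 2 was the highest of its group for 6 of these 12 genes, and for 6 of 9 T and natural killer cell genes. Of 15 monocyte and macrophage genes it was the lowest of its group for 10, against 39.9% of all genes, and the highest for 2. Their mean there was 7.074, the lowest of the 12 arrays, while WT whole leukemia array 2 had the highest, 8.402. The part of other cells in the class II values was not tested. In such sorted bulk samples fewer cells of a type and less RNA per cell cannot be told apart.

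H2-DMa, the alpha chain of the H2-DM peptide exchanger, had the lowest unadjusted p of the 9 genes for L-GMP against whole leukemia in KO and for the interaction, while for KO against WT in whole leukemia H2-DMb1 had it. It measured 8.799, 8.240 and 8.465 in WT whole leukemia and 7.902, 7.187 and 8.450 in KO whole leukemia. Its L-GMP values were 8.678, 8.047 and 8.587 in WT and 8.250, 8.795 and 9.171 in KO. KO whole leukemia array 2 was the lowest of all 12 arrays and KO L-GMP array 3 the highest, and each pair of groups overlapped.

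L-GMP minus whole leukemia in KO was 0.89 for H2-DMa (SE 0.33, 95% interval 0.16 to 1.62, a 1.86-fold ratio, unadjusted p = 0.0214 and adjusted p = 0.671 by limma). The same difference in WT was -0.06 (SE 0.33), and the difference between them, the interaction, was 0.96 (SE 0.47, 95% interval -0.08 to 1.99, limma adjusted p = 1). KO minus WT was -0.65 (SE 0.33, 95% interval -1.39 to 0.08, limma adjusted p = 0.829) in whole leukemia and 0.30 (SE 0.33) in L-GMP. The L-GMP value was 0.09 without KO L-GMP array 3, 0.55 without KO L-GMP array 1 and 0.02 with array weights, with which the interaction was 0.32. Without KO whole leukemia array 2 the KO difference between L-GMP and whole leukemia was 0.56 and the whole leukemia difference between genotypes -0.32, and with array weights, which gave that array the lowest weight, they were 0.32 and -0.30. The 12 neutrophil genes were all lower in L-GMP than in whole leukemia in KO, with a median difference of -2.556, and also in WT, with a median of -1.156, where H2-DMa differed by -0.06. Their part in the H2-DMa values was not tested.

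H2-DMb1, a beta chain of H2-DM, measured 5.885, 6.492 and 6.341 in WT whole leukemia and 5.834, 5.427 and 6.180 in KO whole leukemia. In L-GMP all 6 arrays lay between 5.873 and 6.201. KO minus WT in whole leukemia was -0.43 (SE 0.20, 95% interval -0.87 to 0.02, limma adjusted p = 0.829), and -0.23 without KO array 2, while in L-GMP it was 0.00 (SE 0.20, 95% interval -0.44 to 0.44). As for H2-DMa, KO whole leukemia array 2 was the lowest of the 12, a position that 20.3% of all genes shared, whereas H2-Aa and H2-Eb1 were highest there.

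Ciita, the class II transactivator, varied little, with a range of 0.55 over the 12 arrays against 2.744 for H2-Aa. Its linear values, 42.9 to 62.8, lay not far above the array medians of 36.9 to 39.3, so this small range is that of a dim signal. Its group means differed by -0.09 (SE 0.15, 95% interval -0.43 to 0.25) for KO minus WT in L-GMP and by -0.04 (SE 0.15, 95% interval -0.38 to 0.30) in whole leukemia. L-GMP minus whole leukemia was 0.09 (SE 0.15) in WT and 0.04 (SE 0.15) in KO. The 3 class II chains were all highest of their group in array 2 of WT whole leukemia, KO whole leukemia and KO L-GMP. In these arrays Ciita was lowest of its group in WT whole leukemia (5.422) and KO L-GMP (5.637). It was highest of its group in KO whole leukemia (5.897).

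Of the 7 other genes of class II transcription, 0 were called in any comparison. Nfya, a subunit of the factor that binds CCAAT boxes, differed by -0.37 (SE 0.13) for KO minus WT in whole leukemia and by 0.48 (SE 0.13, limma adjusted p = 0.671) for L-GMP minus whole leukemia in KO. Rfx5, a subunit of the X box factor, differed by -0.34 (SE 0.15) and 0.37 (SE 0.15) in the same comparisons. For KO minus WT in whole leukemia 4 of the 7 genes were lower and 3 higher, against 50.4% of all genes lower. For L-GMP minus whole leukemia in KO 5 were higher and 2 lower, against 52.4% of all genes higher.

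Of the 12 other class II pathway genes, 0 were called in any comparison, and 10 were lower in L-GMP than in whole leukemia in WT (median -0.506, against -0.004 over all genes) and 10 in KO (median -0.373, against 0.01). These shares stand beside 51.2% and 47.6% of all genes that were lower. Marchf1, a ubiquitin ligase that removes class II from the surface, differed by -0.62 (SE 0.20) in WT and -0.57 (SE 0.20) in KO. H2-DMb2, the second beta chain of H2-DM, differed by -0.80 (SE 0.30) in WT and -0.62 (SE 0.30) in KO, and the costimulator Cd80 by -1.06 (SE 0.41) in WT. Mean linear values in WT and KO L-GMP were 41.63 and 35.25 for Marchf1 and 43.39 and 38.24 for Cd80. These lay near the array medians of 36.9 to 39.3, and other genes of this list were as dim. Leaving out any 1 array gave 9 to 10 lower genes in WT and 10 in KO. Of 15 monocyte and macrophage genes 13 were lower in L-GMP in WT (median -0.511) and 7 in KO (median 0.003), and all 12 neutrophil genes were lower in both (medians -1.156 and -2.556). Their part in the class II pathway values was not tested.

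Between genotypes Ifi30 and Ctss had the widest differences among these class II pathway genes, while another endocytic protease, Ctsl (-0.37, SE 0.27), differed less in whole leukemia than Cd80 (-0.69, SE 0.41). Ifi30, the lysosomal thiol reductase that opens disulfide bonds of antigens, measured 9.449, 8.601 and 8.323 in WT whole leukemia and 7.342, 7.365 and 7.873 in KO whole leukemia, with no overlap. In L-GMP it measured 7.770, 8.070 and 9.167 in WT and 6.756, 6.952 and 7.737 in KO. All KO arrays were again the lower ones, though the highest lay just below the lowest WT array. KO minus WT was -1.26 (SE 0.41, limma adjusted p = 0.808) in whole leukemia and -1.19 (SE 0.41, limma adjusted p = 1.00) in L-GMP. Ctss, the protease cathepsin S that cleaves the invariant chain, differed by -1.31 (SE 0.54) in whole leukemia, where groups did not overlap. In L-GMP it differed by -1.29 (SE 0.54), and the groups overlapped. Genotypes did not overlap for 11.2% of all genes in whole leukemia, 5.73% with KO lower, and for 9.48% in L-GMP. Ifi30 and Ctss are also abundant in monocytes. The mean over 15 monocyte and macrophage genes was 7.946 to 8.402 in WT whole leukemia and 7.074 to 7.753 in KO whole leukemia. In L-GMP it was 7.546 to 7.972 in WT and 7.081 to 7.594 in KO. The part of monocyte content in these differences was not tested.

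**Figure D2:**
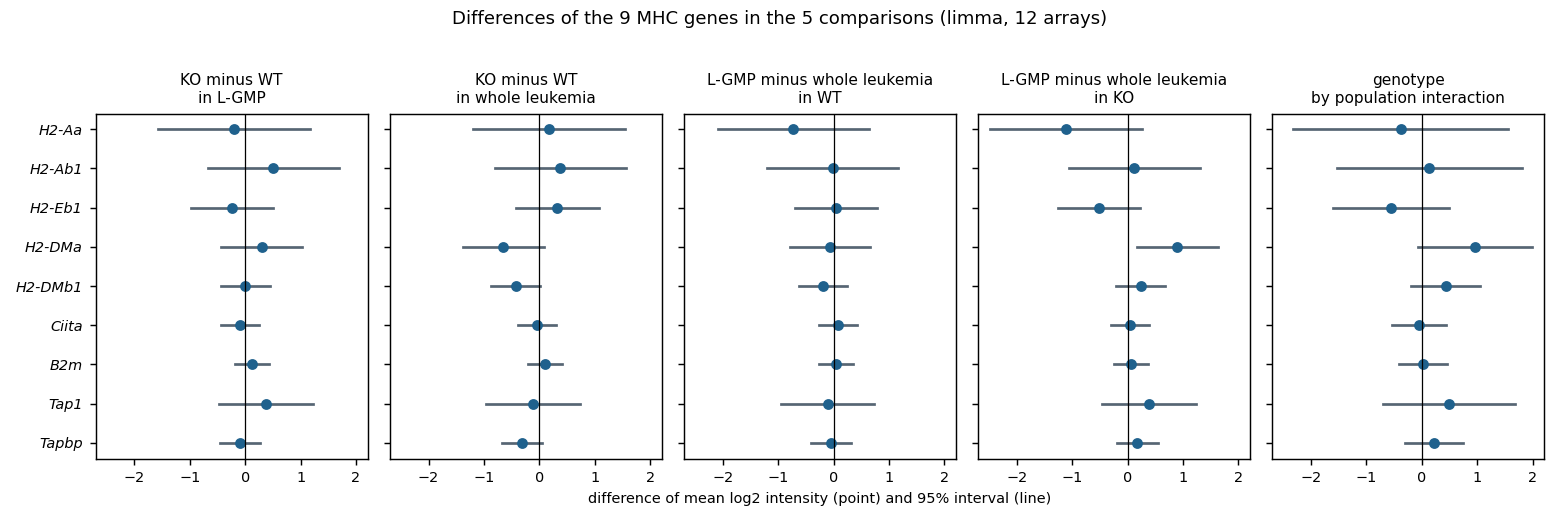
Differences in log2 intensity for the 9 measured genes (vertical axis) in the comparisons of the design (panels), with points for the limma estimate and bars for its 95% interval; the vertical line marks 0. Only the interval of H2-DMa for L-GMP minus whole leukemia in KO, 0.16 to 1.62, leaves out 0, and no gene passed after adjustment.

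B2m, the light chain of class I molecules, was bright and steady. It measured 12.099, 12.510 and 12.360 in WT whole leukemia and 12.492, 12.306 and 12.461 in KO whole leukemia. In L-GMP it measured 12.111, 12.559 and 12.421 in WT and 12.387, 12.459 and 12.599 in KO. All 12 arrays lay within 0.5 of each other. KO minus WT was 0.12 (SE 0.14, 95% interval -0.19 to 0.43) in L-GMP and 0.10 (SE 0.14, 95% interval -0.21 to 0.41) in whole leukemia. L-GMP minus whole leukemia was 0.04 (SE 0.14) in WT and 0.06 (SE 0.14) in KO.

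Tap1, the peptide transporter subunit, measured 7.259, 8.646 and 7.524 in WT whole leukemia and 7.594, 7.737 and 7.751 in KO whole leukemia. The L-GMP arrays gave 7.018, 8.411 and 7.678 in WT and 7.822, 8.108 and 8.297 in KO. Array 2 was far above the others in both WT populations, and the KO L-GMP arrays all lay above the KO whole leukemia arrays. Tap1 in KO was the only case among the 9 genes and the 4 pairs of groups in which groups did not overlap, which held for 10.2% of all genes in that comparison and for 9.48%, 11.2% and 10.3% in the others. That difference was 0.38 (SE 0.38, 95% interval -0.46 to 1.23, limma adjusted p = 0.834). KO minus WT was -0.12 (SE 0.38) in whole leukemia and 0.30 without WT array 2, and 0.37 (SE 0.38) in L-GMP, 0.73 without WT L-GMP array 2 and 0.03 without WT L-GMP array 1.

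Tapbp, tapasin, measured 7.371, 7.908 and 7.435 in WT whole leukemia and 7.224, 7.089 and 7.465 in KO whole leukemia. In L-GMP it measured 7.494, 7.723 and 7.370 in WT and 7.509, 7.253 and 7.538 in KO. The groups overlapped, and KO minus WT was -0.31 (SE 0.17, 95% interval -0.68 to 0.05, limma adjusted p = 0.834) in whole leukemia and -0.10 (SE 0.17) in L-GMP. Without WT array 2 the whole leukemia difference was -0.14. A second Tapbp probe set gave -0.028 in whole leukemia, a smaller difference, and 0.123 in L-GMP, the opposite sign.

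B2m, Tap1 and Tapbp, with H2-Aa and H2-DMb1, were highest in array 2 of both WT populations, so 5 of the 9 genes had this pattern, against 17.3% of all genes. H2-DMa and Ciita were lowest in those arrays, a pattern shared by 14.6% of all genes. Interferon response genes moved the same way: 17 of 18 were highest in array 2 of both WT populations. Their mean was 8.023 in WT whole leukemia array 2 and 7.742 in WT L-GMP array 2, against 5.582 to 6.428 in the other 10 arrays. Of the class I heavy chain genes 5 of 7 had the pattern, and of 14 other class I pathway genes 8 did. The part of the interferon response in the values of the 9 genes was not tested.

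**Figure D3:**
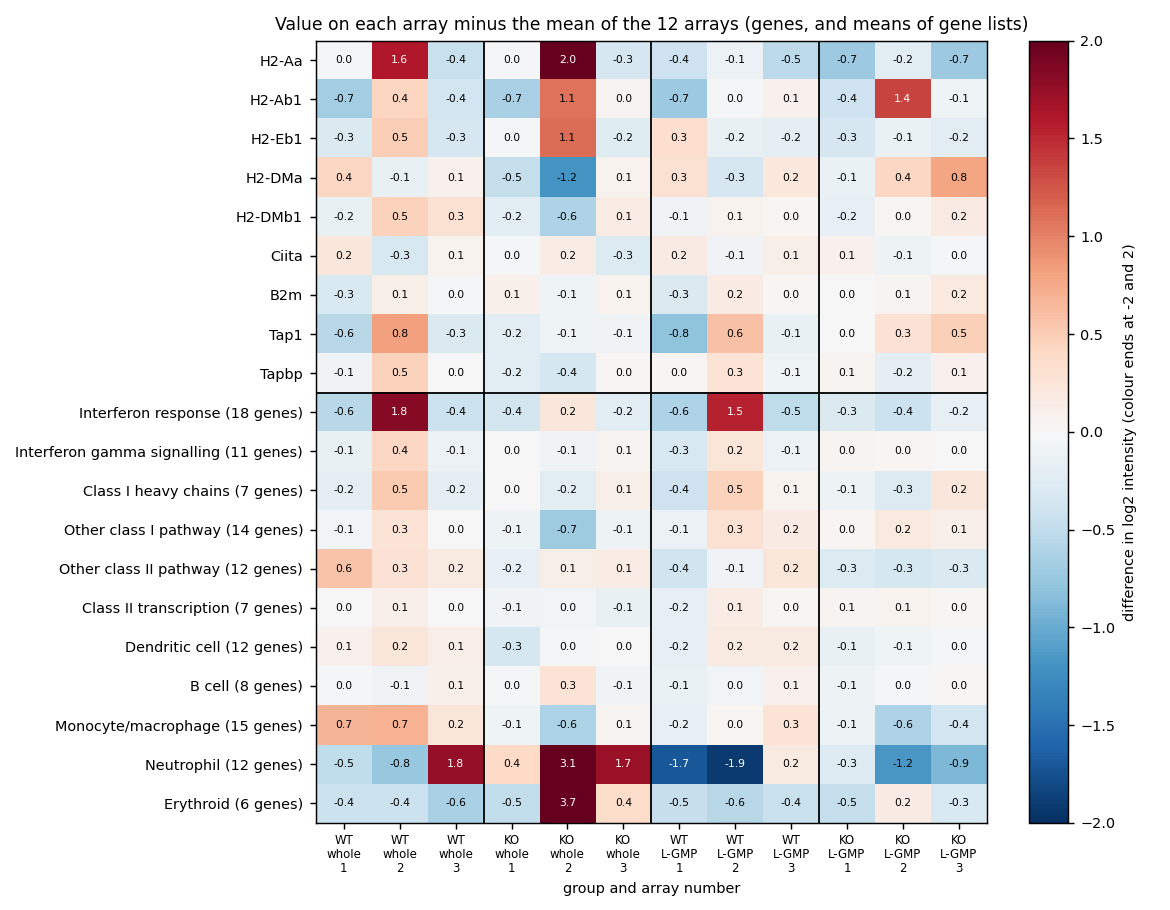
Each of the 9 measured genes and, under the line, the mean of each gene list (rows), as the difference in log2 intensity from its own mean over 12 arrays, in each array (columns); red is above and blue below that mean, and colours end at -2 and 2. Tap1 and the interferon response stood highest in array 2 of WT whole leukemia and WT L-GMP, and H2-Aa in array 2 of both whole leukemia groups.

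Of the 7 class I heavy chain genes with a probe set of their own 0 were called in any comparison. They include near-identical copies that can share signal, so their values are uncertain. The 14 other class I pathway genes, among them proteasome subunits, transporters and chaperones of loading, gave 0 calls as well, but all 14 were lower in KO than in WT whole leukemia (median -0.414, against -0.002 over all genes, of which 50.4% were lower). Psmb10, an immunoproteasome subunit, measured 8.556, 9.404 and 8.493 in WT whole leukemia and 8.230, 7.337 and 8.274 in KO whole leukemia, a difference of -0.87 (SE 0.40). Tapbpl, a tapasin-related loading factor, differed by -0.54 (SE 0.22), Psme1 by -0.45 (SE 0.24) and Psme2, which with Psme1 forms the proteasome activator, by -0.34 (SE 0.13). The arrays did not overlap for these 4 genes, against 5.73% of all genes with KO arrays lower. In the same comparison 12 of 12 neutrophil genes (median 1.577) and 6 of 6 erythroid genes (median 1.907) were higher in KO, and 13 of 15 monocyte and macrophage genes (median -0.888) and 15 of 18 interferon response genes (median -0.443) were lower, with 0 called. The interferon count turned without WT whole leukemia array 2, with 5 of 18 lower and a median of 0.471. Without that array 13 of 15 monocyte and macrophage genes (median -0.784) and 12 of 14 class I pathway genes (median -0.283) were lower. The part of the neutrophil, erythroid, monocyte and interferon genes in the class I pathway values was not tested.

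KO whole leukemia array 2 was the lowest of its group for 11 of these 14 class I pathway genes, against 39.9% of all genes. Without it 11 of 14 were lower in KO and the median was -0.117. In L-GMP 6 of the 14 were lower in KO, against 45.2% of all genes, with a median of 0.017. Accordingly 12 of 14 were higher in L-GMP than in whole leukemia in KO (median 0.491, or 0.278 without that array, with 12 of 14 again higher), against 52.4% of all genes. The chaperone Calr differed there by 0.94 (SE 0.37), Canx by 0.52 (SE 0.21), Psmb8 by 0.59 (SE 0.26) and Psme2 by 0.38 (SE 0.13, limma adjusted p = 0.671). These 2 comparisons share the KO whole leukemia arrays. In WT 9 of 14 were higher in L-GMP, against 48.8% of all genes, with a median of 0.094.

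Among arrays of the same number, the widest single differences between L-GMP and whole leukemia were those of H2-Aa and H2-DMa. H2-DMa was higher in L-GMP in 3 of 3 KO pairs, by 0.347, 1.608 and 0.721, and in 1 of 3 WT pairs. H2-DMb1, Tap1 and Tapbp were likewise higher in L-GMP in 3 of 3 KO pairs, Tap1 by 0.228, 0.371 and 0.545. Over both genotypes 3.77% of all genes were higher in all 6 pairs, with none of the 9 genes among them. No label pairs the arrays, and by the correlation of deviations KO numbers 1 and 2 share only a number.

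**Figure D4:**
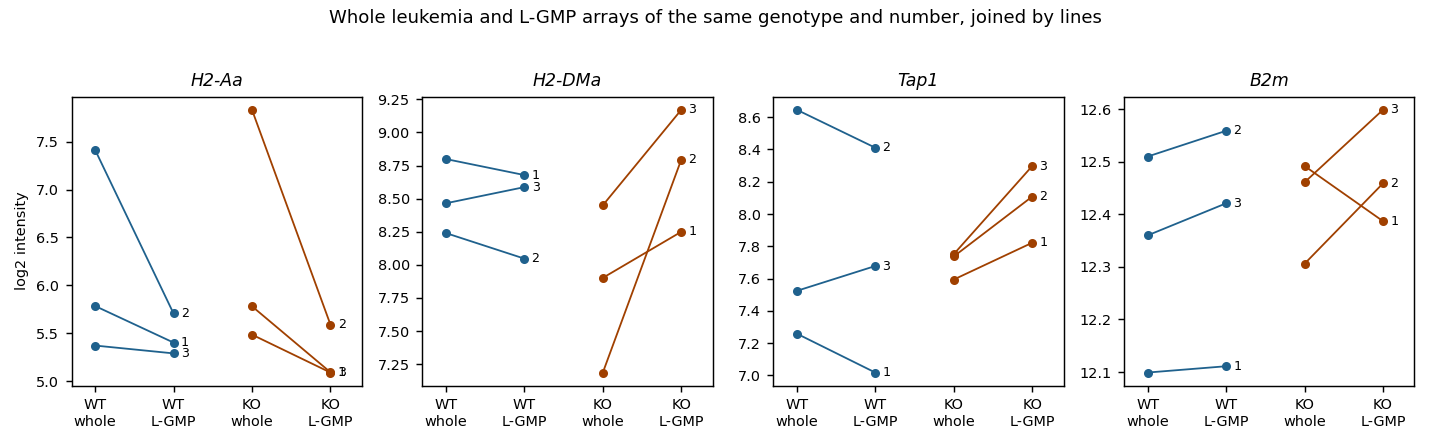
Log2 intensity (vertical axis, own scale per panel) of H2-Aa, H2-DMa, Tap1 and B2m in whole leukemia and L-GMP (horizontal axis), with lines joining arrays of the same genotype and number. No label pairs the joined arrays, and KO numbers 1 and 2 share only a number. H2-Aa is lower in L-GMP along 6 of 6 lines, with differences of -2.244 to -0.083, and H2-DMa and Tap1 are higher in L-GMP along the 3 KO lines.

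Genes with array profiles most like those of the class II chains were ranked by Pearson r over the 12 arrays with the mean standardised profile of H2-Aa, H2-Ab1 and H2-Eb1. The top 5 were Frmd4a (r = 0.931), Rsad2 (r = 0.919), Mrc1 (r = 0.910), Fzd4 (r = 0.900) and Atp1b2 (r = 0.880), of which Rsad2 is an interferon-induced antiviral enzyme and Mrc1 the macrophage mannose receptor. Without the 2 arrays farthest from the median, number 2 of both whole leukemia groups, r was 0.727 for Frmd4a, 0.258 for Rsad2, 0.222 for Mrc1, 0.571 for Fzd4 and 0.686 for Atp1b2, so the likeness of Rsad2 and Mrc1 rests on those arrays. Mrc1 moreover varied only between 4.81 and 5.155. Of the profile's own genes, H2-Aa fell from 0.925 to 0.358 without those arrays and H2-Eb1 from 0.901 to 0.345. H2-Ab1 stood at 0.824, so without those arrays r mostly measures likeness to H2-Ab1, also for Frmd4a, Fzd4 and Atp1b2. The same ranking for B2m, Tap1 and Tapbp gave Igtp (r = 0.948), Dcaf11 (r = 0.940), Slfn8 (r = 0.906), Irgm1 (r = 0.878) and Fkbp8 (r = 0.869), where Igtp and Irgm1 are interferon-inducible GTPases. Without array 2 of both WT groups r was 0.880 for Igtp, 0.911 for Dcaf11, 0.868 for Slfn8, 0.720 for Irgm1 and 0.817 for Fkbp8. Of this profile's own genes Tapbp fell from 0.739 to 0.36 without those arrays, while B2m stood at 0.919 and Tap1 at 0.88. The ranked genes are the highest of 17749 and a description only, since the arrays share groups and numbers.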

How the data were processed

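The deposited values, a linear intensity per probe set, were taken as they stand, while their software, background correction, normalization and build are not given in the sources used. The number of arrays, 3 per group, limits the precision: the median SE of a difference was 0.153. They were converted to log2 here, with no scaling or pseudocount. A gene needed a mean of at least 4.72, the 25% point of all probe sets. Differences were tested in limma 3.58.1 (R 4.3.3) by lmFit and eBayes, with a mean for each group in a single fit of 12 arrays and Benjamini-Hochberg adjustment over 17749 genes, called under 0.05. The scripts were tested on simulated data. Array medians of the deposited intensity lay between 36.9 and 39.3. The gene set and the lists were chosen with earlier results of these data known. All members are named, and from each list at most 4 genes of lowest unadjusted p per comparison, besides defining markers; likeness was ranked by Pearson r, leaving out predicted and clone names. The class II profile was planned with Cd74 and used 3 genes. Promoters came from RefSeq, build GRCm38.p6. Same-numbered WT whole leukemia and L-GMP arrays deviated together from their group means (r = 0.36, 0.62 and 0.3 over genes for numbers 1, 2 and 3), so the numbers pair the WT samples by this check from the data, not by the labels. Alternatives covered scaling, filters, probe set choice, array weights, replicate blocks and left-out arrays.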

Additional observations from a re-analysis of the deposited data

How the results depend on the processing

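Over 127 combinations of an alternative setting with 1 of the 5 comparisons, limma called 0 of the 9 genes in each. Leaving out an array of a group not compared keeps the estimate and changes only its spread, so part of these combinations repeat the main estimate. The lowest limma adjusted p of the 9 genes was 0.289, for H2-DMa in L-GMP against whole leukemia in KO. It came without KO whole leukemia array 1, where 40 genes were called in all, against 0 with every array. Array weights called 4 genes for KO against WT in L-GMP, against 1 without them. Of 1143 values of single genes 1065 kept their sign and 78 did not, all of them differences that were not called, and those of differences given in the text are listed below. Quantile normalization moved the 36 group means by -0.03 to 0.04. With the replicate number as a block 0 of the 9 genes were called in every comparison, and the same held with genotype and number as a block, random (correlation 0.15) or fixed, the fixed form being added after the data were seen. The fixed form had 3 of the 9 genes at an unadjusted p under 0.05 for L-GMP against whole leukemia in KO, against 1 without it. In KO the deviations of same-numbered arrays correlated at 0.13, 0.09 and 0.43, so numbers 1 and 2 there share only a number. Not every array correlated best with its own number. A median 95% interval of 0.34 either way on the log2 scale limits what 3 arrays a group can show, and differences in the class II chains had wider intervals. The cause of the turned signs below was not tested, and each value is a log2 difference. With array weights the signs turned for KO minus WT in L-GMP H2-Ab1 -0.025, H2-DMb1 -0.11 and Tapbp 0.0030, for KO minus WT in whole leukemia H2-Aa -0.41 and H2-Eb1 -0.012, for L-GMP minus whole leukemia in WT H2-Ab1 0.12 and H2-Eb1 -0.10 and for L-GMP minus whole leukemia in KO H2-Ab1 -0.10, H2-DMb1 -0.051 and B2m -0.016. Without both number-2 KO arrays the signs turned for KO minus WT in L-GMP H2-Ab1 -0.028 and H2-DMb1 -0.012 and for KO minus WT in whole leukemia H2-Aa -0.56, H2-Ab1 -0.088 and H2-Eb1 -0.095. Without both number-2 WT arrays the signs turned for KO minus WT in L-GMP Tapbp 0.0020, for KO minus WT in whole leukemia Tap1 0.30 and for L-GMP minus whole leukemia in WT H2-Ab1 0.21, H2-DMa 0.0008 and Tapbp 0.028. Other turned signs were B2m -0.020 for L-GMP minus whole leukemia in WT with quantile normalization, Ciita -0.0038 for L-GMP minus whole leukemia in KO with 75th percentile scaling and Tapbp 0.014 for KO minus WT in L-GMP with the mean of all probe sets. With 1 array left out at a time, ranges that crossed 0 for KO minus WT in L-GMP were H2-DMb1 -0.073 to 0.091, B2m -0.0081 to 0.22, Tapbp -0.17 to 0.0020 and H2-Ab1 -0.028 to 0.86. With 1 array left out at a time, ranges that crossed 0 for KO minus WT in whole leukemia were H2-Aa -0.56 to 0.79, Ciita -0.19 to 0.080, B2m -0.015 to 0.19, Tap1 -0.39 to 0.30, H2-Ab1 -0.088 to 0.78 and H2-Eb1 -0.095 to 0.59. With 1 array left out at a time, ranges that crossed 0 for L-GMP minus whole leukemia in WT were H2-Eb1 -0.12 to 0.31, H2-DMa -0.19 to 0.13, B2m -0.072 to 0.17, H2-Ab1 -0.25 to 0.31, Ciita -0.070 to 0.20, Tap1 -0.46 to 0.31 and Tapbp -0.14 to 0.13. With 1 array left out at a time, ranges that crossed 0 for L-GMP minus whole leukemia in KO were H2-Ab1 -0.41 to 0.58 and Ciita -0.077 to 0.14.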
